A study of Mus musculus with 6 samples.

Results

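The Hox genes of cultured mouse vascular smooth muscle cells were described as a record of position, by cluster and by paralog number, in 6 polyA RNA-seq libraries. Members were the rows of the gene count table whose symbol is Hox, a cluster letter from a to d and a number. There were 17 such rows among 23197, and 11 of them held enough reads to be tested among 13234 tested rows. The cells were purchased mouse primary vascular smooth muscle cells, and the labels do not name the vessel, the strain or the age of the animals. The libraries labelled siArid3a, 3 in number, came from cells transfected with siRNA against Arid3a, which encodes a DNA-binding protein with an AT-rich interaction domain. The other 3 libraries carry the label negative control, and what the control cells received is not described further. The protocol gives transfection with riboFECT reagent at a low density and 24 h of incubation. The replicate numbers of the siRNA are not described as repeats of 1 siRNA or as separate sequences, and no separate cultures are named. Each p-value therefore measures the spread between these samples, and that spread may be technical. Angiotensin II exposure is described for such cells, and it is not said whether the sequenced cells received it.

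Hox genes encode homeodomain transcription factors that set the identity of body segments along the axis from head to tail. They lie in 4 clusters named A to D, and within a cluster the genes of low paralog number are switched on early and towards the head, while those of high number are switched on late and towards the tail. Cells of mesodermal and neural crest origin often keep this pattern into adult life and culture, and in the mouse arterial smooth muscle of different aortic segments is known to differ in its Hox genes. The microRNA families miR-10 and miR-196 are encoded between Hox genes and target Hox transcripts.

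The mature microRNAs are shown because they lie within the clusters and bear on the members measured here. The capitals mark the seed, bases 2 to 8 from the 5′ end. The sequences are from RefSeq (GRCm38.p6), which placed miR-196a at chr11:96265187-96265208 on the plus strand, miR-196b at chr6:52230129-52230150 on the minus strand, miR-10a at chr11:96317186-96317208 on the plus strand and miR-10b at chr2:74726074-74726096 on the plus strand.
miR-196a-5p: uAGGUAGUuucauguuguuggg
miR-196b-5p: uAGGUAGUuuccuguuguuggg
miR-10a-5p: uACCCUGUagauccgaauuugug
miR-10b-5p: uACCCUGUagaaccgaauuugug
The 2 miR-196 forms share 1 seed and the 2 miR-10 forms share another. Mature microRNAs carry no polyA tail and were not measured in these libraries.

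The 3′UTR of Hoxb8 is shown beside those of 3 other members because it holds a nearly complete complement of miR-196a, whose cleavage of the Hoxb8 transcript is known from mouse embryos. The sites were read from GENCODE M21 transcripts on GRCm38, the assembly also called mm10. Here the capitals mark bases that are complementary to miR-196a. The Hoxb8 site lies at chr11:96284888-96284909, the Hoxb7 site at chr11:96289784-96289805, the Hoxa7 site at chr6:52215210-52215231 and the Hoxa9 site at chr6:52223900-52223921, the first pair on the plus strand and the second pair on the minus strand.
Hoxb8: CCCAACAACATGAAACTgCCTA
Hoxb7: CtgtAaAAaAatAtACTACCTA
Hoxa7: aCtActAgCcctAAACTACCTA
Hoxa9: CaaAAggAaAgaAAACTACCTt
At the Hoxb8 site 21 of 22 bases were complementary, and the other base, opposite position 5 of the microRNA, formed a G-U pair. Of 20770 3′UTRs, 1 (0.00481%) reached 21 complementary bases. Sites with 14 or more, the level of the other 3 shown, occurred in 20.3% of 3′UTRs. The 7-base seed match ACTACCT, searched on the transcript strand only, was present in 4 of 17 members, with Hoxa7, Hoxa9 and Hoxb7 among them, against 6.15% of all 3′UTRs. Hoxa7 held 4 copies. The miR-10 seed match ACAGGGT was present in 2 of 17 members, with Hoxb3 among them, against 12.6% of all 3′UTRs. A match is a description of the sequence and not evidence of binding in these cells.

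The libraries labelled siArid3a held 17029735 to 22799935 gene counts and the controls 17057300 to 22189166. The targeted transcript was not measurably lower in the libraries labelled siArid3a. Arid3a had 16.6, 21.5 and 19.8 CPM (counts scaled to library size, with TMM factors) in siArid3a libraries 1, 2 and 3, against 19.5, 16.8 and 22.6 CPM in control libraries 1, 2 and 3, and the groups overlapped. Its log2 fold change, siArid3a over control, was −0.03 with a 95% interval of −0.31 to 0.26, and the exact permutation p, two-sided, was 0.8, with 0.1 the smallest that 3 against 3 libraries allow. Every direction given is that of the libraries labelled siArid3a and not of a measured loss of Arid3a. Of 8 smooth muscle markers 7 were tested and 0 were called, where 0% of all tested genes were. Over the 6 libraries Smtn, Cnn1 and Lmod1 averaged 71.4, 30.2 and 5.05 CPM. Tagln, Myocd and Des were low, at 1.34, 1.24 and 0.689 CPM. Of the exonic bases of Tagln, 32.1% lie outside the spans of other genes. Acta2, smooth muscle actin, had 554 ± 82.7 and 541 ± 53.7 CPM in siArid3a and control libraries (SD, n = 3 each). Myh11, smooth muscle myosin heavy chain and the marker of the mature contractile cell, had 30 reads over the 6 libraries, which is at or near 0.

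The table does not show all Hox genes. GENCODE M21 annotates 39, of which 17 had a row. In all 23197 rows the length given is that of the whole gene span with its introns, and genes whose exons are covered by the spans of other genes mostly have no row. Of 1489 protein-coding genes with no exonic base outside other genes, 13.8% had a row, against 80.0% of the other 20462. Of the Hox genes 12 had no exonic base outside other genes, and 0 of these had a row. They are Hoxa3, Hoxa4, Hoxa5 and Hoxa6, Hoxb2, Hoxb5 and Hoxb6, Hoxc6, Hoxc8 and Hoxc9, and Hoxd4 and Hoxd8, none of which was analysed here. The covering genes include Hoxb5os, on the opposite strand of Hoxb5 and Hoxb6, and Hoxc5, whose span holds Hoxc6, Hoxc8 and Hoxc9. A further 10 genes have exonic bases of their own and no row, namely Hoxa13, Hoxb1, Hoxc12, Hoxd1, Hoxd3, Hoxd9, Hoxd10, Hoxd11, Hoxd12 and Hoxd13. Thus the HoxA cluster gave 6 of 11 genes, HoxB 6 of 10, HoxC 5 of 9 and HoxD 0 of 9.

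Levels differed far more between Hox genes than between libraries. The 17 rows held 30214 reads over the 6 libraries, and 30161 of these fell on the 11 rows of paralog groups 1 to 9. The 6 rows of paralog groups 10 to 13, which pattern the lower trunk, limbs and tail, held 53 reads. The sum of all Hox rows was 245, 258 and 254 CPM in siArid3a libraries 1, 2 and 3, against 268, 244 and 279 CPM in control libraries 1, 2 and 3. The highest and the lowest sums both belonged to controls, so the groups overlapped.

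**Figure D1:**
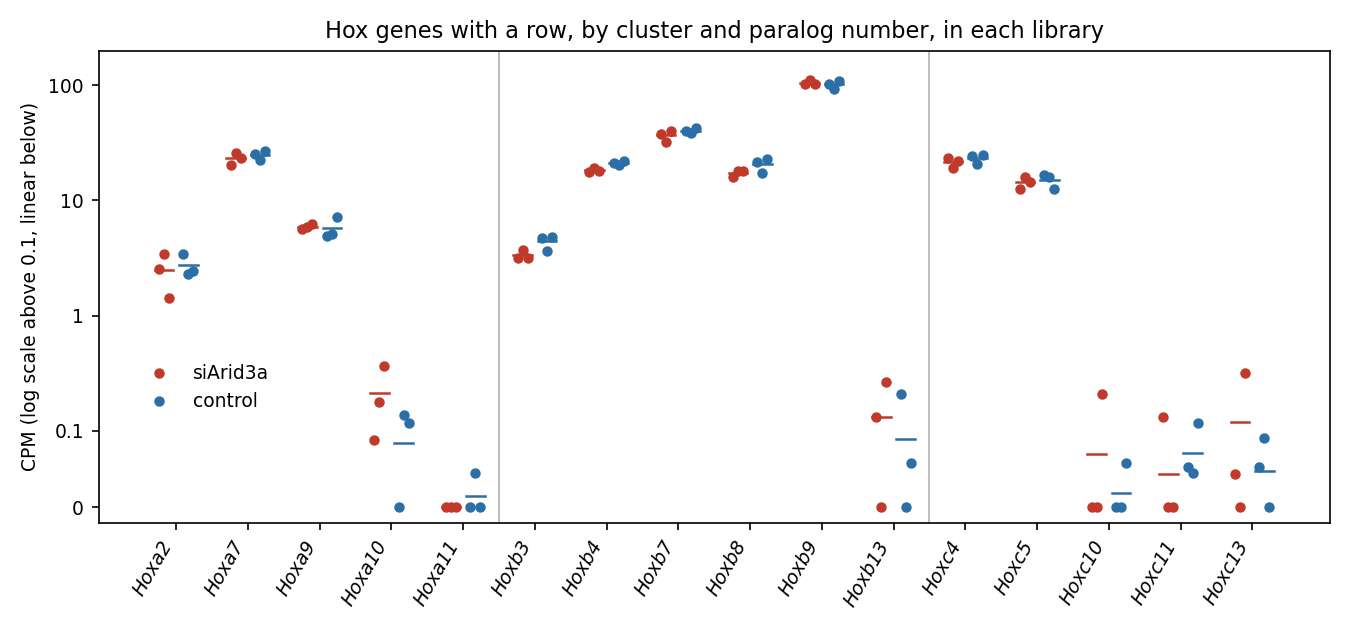
Level of 16 Hox genes with a row (y axis, CPM, log scale above 0.1 and linear below) by cluster and paralog number (x axis), with 1 point per library and the group mean as a line; siArid3a libraries are drawn left of the controls. The 10 genes drawn of paralog groups 1 to 9 lie above 1 CPM in every library and the 6 of groups 10 to 13 lie below 1 CPM.

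In the HoxA cluster, Hoxa7 was the most abundant member and the anterior gene Hoxa2 was low. Hoxa2, which gives the second pharyngeal arch its identity, had 2.53, 3.45 and 1.42 CPM in siArid3a libraries 1, 2 and 3, against 3.44, 2.31 and 2.43 CPM in the controls in the same order. The groups overlapped, with both the highest and the lowest value in siArid3a libraries. Of the exonic bases of Hoxa2, 53.1% lie outside other genes. Hoxa7, a gene of the thoracic segments, had 20.4, 26.0 and 23.5 CPM in siArid3a libraries 1, 2 and 3, against 25.6, 22.6 and 26.8 CPM in control libraries 1, 2 and 3. Hoxa9, a thoracic and lumbar gene that also acts in blood stem cells, had 5.62, 5.85 and 6.25 CPM in siArid3a libraries 1, 2 and 3, against 4.89, 5.12 and 7.18 CPM in control libraries 1, 2 and 3. The groups overlapped for Hoxa7 and Hoxa9 as well, with control library 3 the highest for each.

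The HoxB cluster held the most abundant members. Hoxb3, a hindbrain and neck gene, had 3.14, 3.74 and 3.15 CPM in siArid3a libraries 1, 2 and 3, against 4.69, 3.67 and 4.86 CPM in control libraries 1, 2 and 3. Hoxb4, a neck gene known for expanding blood stem cells, had 17.8, 19.3 and 18.0 CPM in siArid3a libraries 1, 2 and 3, against 21.3, 20.4 and 22.1 CPM in control libraries 1, 2 and 3. For Hoxb4 all siArid3a libraries lay below all controls, while for Hoxb3 control library 2 lay among the siArid3a libraries. Hoxb7, a thoracic gene, had 37.9, 32.5 and 40.0 CPM in siArid3a libraries 1, 2 and 3, against 39.9, 38.8 and 42.3 CPM in control libraries 1, 2 and 3. Hoxb8, a trunk gene whose product holds back myeloid differentiation when forced on, had 16.0, 18.0 and 18.1 CPM in siArid3a libraries 1, 2 and 3, against 21.8, 17.5 and 22.9 CPM in the controls in that order. Control library 2 was again the lowest control for both Hoxb7 and Hoxb8, and the groups overlapped. Hoxb9 (ENSMUSG00000020875, chr11:96271457-96276595, plus strand), which patterns ribs and sternum, had 102, 111 and 103 CPM in siArid3a libraries 1, 2 and 3, against 103, 93.0 and 110 CPM in control libraries 1, 2 and 3. Its groups overlapped, with both the lowest value and the second highest in controls.

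In the HoxC cluster the tested members were the anterior Hoxc4 and Hoxc5, genes of the border between neck and thorax. Hoxc4 had 23.5, 19.1 and 21.9 CPM in siArid3a libraries 1, 2 and 3, against 24.3, 20.6 and 25.0 CPM in control libraries 1, 2 and 3. Hoxc5 had 12.5, 16.0 and 14.6 CPM in siArid3a libraries 1, 2 and 3, against 16.5, 15.9 and 12.7 CPM in control libraries 1, 2 and 3. The groups overlapped for both. The span of Hoxc5 takes in Hoxc6, Hoxc8 and Hoxc9, so its count can include reads of long or unspliced transcripts that start upstream.

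To rank genes against each other, each level was divided by the kilobases of exon outside other genes, and all levels in this paragraph are CPM per kb over the 6 libraries. Hoxb9 was the highest at 40.3 ± 2.53 CPM per kb, followed by Hoxb7 at 25.0 ± 2.14 CPM per kb (SD, n = 6), and neither overlapped its neighbour in the order. A middle group followed in which neighbours overlapped, made up of Hoxa7 at 10.5, Hoxc4 at 8.72, Hoxb3 at 7.88, Hoxb4 at 7.73 and Hoxb8 at 7.23 CPM per kb. The level of Hoxb3 was divided by the 11.6% of its exonic bases that lie outside other genes. Over all its exons it was 0.912 CPM per kb. If reads were counted over whole spans, reads of introns enter a level and not its divisor. Outside other genes, Hoxb3 has 492 exonic bases in a span of 13936, Hoxc4 2568 in 17919 and Hoxc5 2923 in 19568. The part of intronic reads in the levels per kb, and in ratios between genes, was not tested. Hoxc5 at 5.03 CPM per kb stood below that group without overlap. Hoxa2 followed at 2.76 CPM per kb, and Hoxa9 was the lowest of the tested members at 1.06 ± 0.151 CPM per kb (SD, n = 6).

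Position within a cluster did not order the levels evenly. In HoxB the level of Hoxb9 was 5.58 times that of its neighbour Hoxb8, and it was higher in 6 of 6 libraries. Beyond Hoxb9 lies Hoxb13, a gene of the tail and prostate, and Hoxb9 was 809 times as high on the mean level per kb (337 to 1624 times in single libraries with a read of Hoxb13, which had 13 reads in all). In HoxA the level of Hoxa7 was 9.95 times that of Hoxa9. The level of Hoxa9 was 23.6 times that of Hoxa10, a lumbar and uterine gene with 17 reads in all. In single libraries with a read of Hoxa10 it was 10.1 to 38.4 times as high. Genes of 1 paralog group differed between clusters, since Hoxb9 was 38.1 times as high as Hoxa9 and Hoxb7 was 2.37 times as high as Hoxa7 in mean level per kb. Hoxb4 and Hoxc4, by contrast, stood at a ratio of 0.886, with Hoxb4 the higher in 1 of 6 libraries. Ratios to Hoxa9 depend on its divisor, which takes in all annotated exons. It is 5495 bases, against 2574 for Hoxb9 and 2290 for Hoxa7. Without division Hoxb9, Hoxa7 and Hoxa9 averaged 104, 24.1 and 5.82 CPM over the 6 libraries. Which exons of Hoxa9 these cells use was not tested. The HoxB rows made up 73.4% to 75.5% of the summed level per kb in each library.

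**Figure D2:**
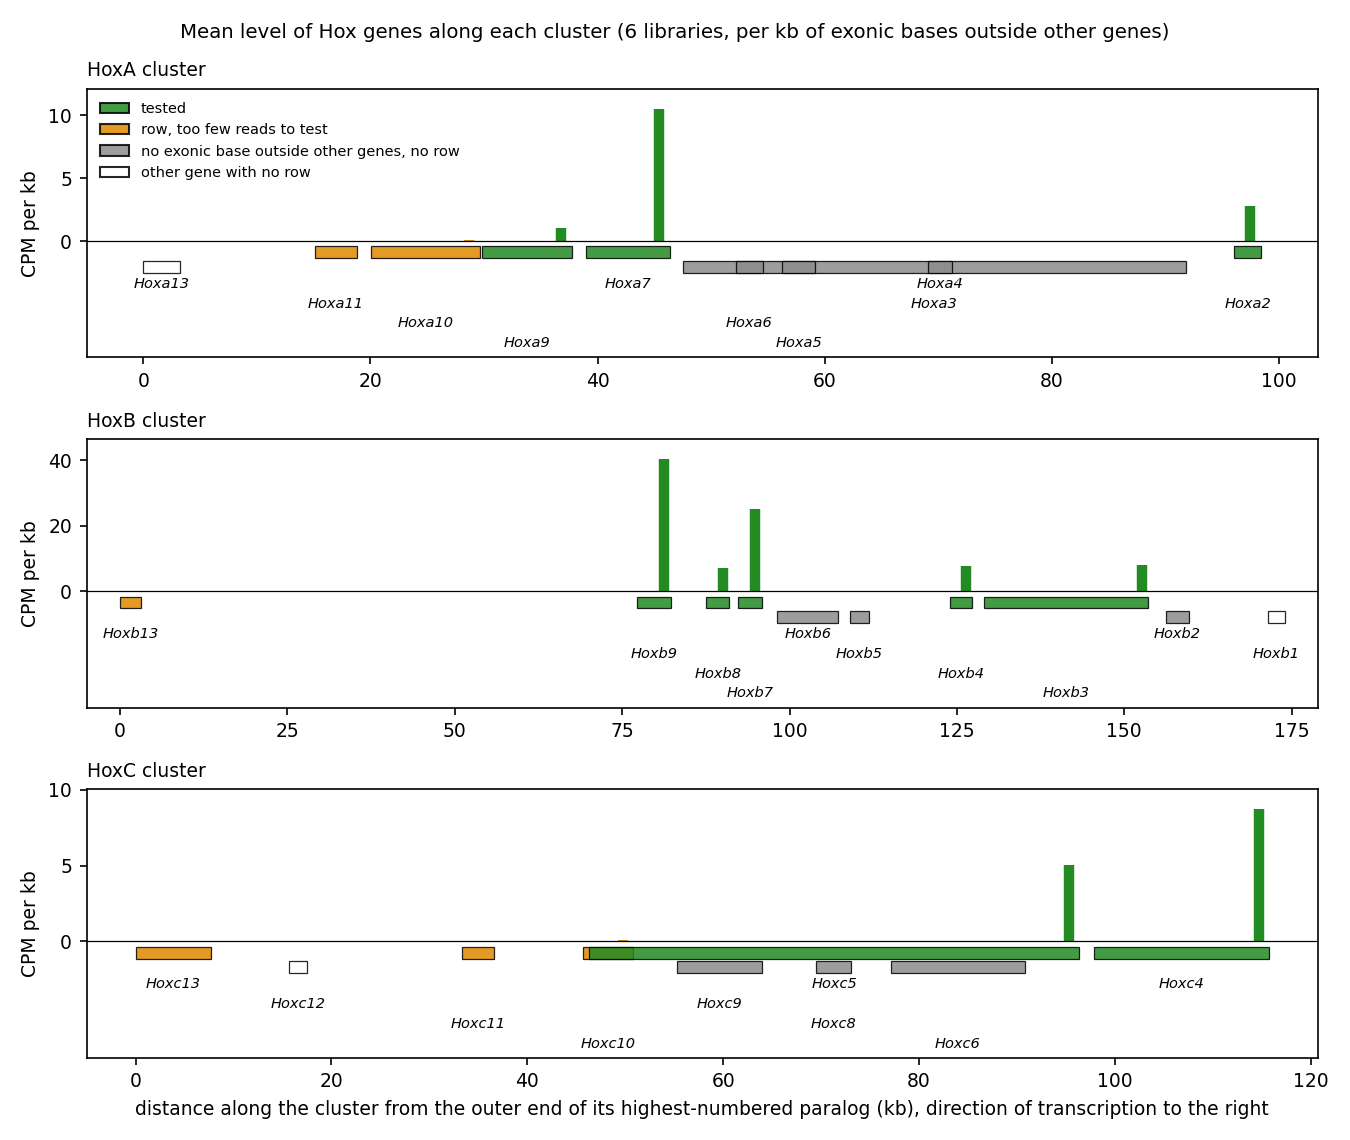
Mean level (y axis, CPM per kb of exonic bases outside other genes, mean of 6 libraries) along the HoxA, HoxB and HoxC clusters (x axis, distance in kb from the outer end of the highest-numbered gene), with gene spans below the axis and bars at the 3′ end of each gene. Hoxb9 at 40.3 and Hoxb7 at 25.0 CPM per kb stand highest, and the grey spans are genes with no exonic base outside other genes and no row.

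The second question was whether the code differed between the libraries labelled siArid3a and the controls. None of the 11 tested Hox genes was called by the edgeR quasi-likelihood test at an adjusted p under 0.05, where 0% of the 13234 tested genes were. At an unadjusted p under 0.05 there were 0 of 11 Hox genes, against 14.9% of all tested genes, and DESeq2 and limma-voom also gave 0 of 11, where they called 1.70% and 0% of genes and put 13.8% and 15.2% under an unadjusted p of 0.05. The groups did not overlap for 1 Hox gene, Hoxb4, which was lower, where 10.4% of tested genes were lower and 9.66% higher in that way. Below 0 on the log2 scale lay 8 of 11 Hox genes and 51.1% of all tested genes, and above 0 lay 3 of 11 and 48.9%. The median log2 fold change was −0.11 over the Hox genes and −0.01 over all genes tested. The median standard error of a single Hox gene was 0.125.

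The members with the smallest p values were all lower and in HoxB. Hoxb8 averaged 17.4 ± 1.14 CPM in siArid3a libraries and 20.7 ± 2.86 CPM in control libraries (SD, n = 3 each), with a log2 fold change of −0.25 (SE 0.12) and an edgeR adjusted p of 0.350. Hoxb4 averaged 18.4 ± 0.818 and 21.3 ± 0.886 CPM in siArid3a and control libraries, with a log2 fold change of −0.21 (SE 0.11) and an adjusted p of 0.363. For Hoxb3 the log2 fold change was −0.40 (SE 0.21) and the adjusted p 0.397. The intervals of their ratios, siArid3a over control, were 0.697 to 1.01 for Hoxb8, 0.738 to 1.01 for Hoxb4 and 0.555 to 1.04 for Hoxb3, so each includes both no change and a fall to its lower bound. Hoxb8 is the member with the nearly complete miR-196a site shown above. Its fold change could not be told from 0, and the row of Mir196a-1, which covers the hairpin, had 3.01 ± 0.707 and 3.95 ± 0.855 CPM in siArid3a and control libraries.

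Hoxb9 had a log2 fold change of 0.05 (SE 0.08) with an interval of 0.918 to 1.17 times the control, the narrowest of the 11. Hoxa2, Hoxa7, Hoxa9, Hoxb7, Hoxc4 and Hoxc5 had log2 fold changes from −0.15 for Hoxa2 to 0.05 for Hoxa9, and their adjusted p values were from 0.569 for Hoxb7 to 0.931 for Hoxa9. The widest interval was that of the low gene Hoxa2, from −0.82 to 0.52 on the log2 scale. The intervals of Hoxa7, Hoxa9, Hoxb7, Hoxc4 and Hoxc5 all contained 0.

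**Figure D3:**
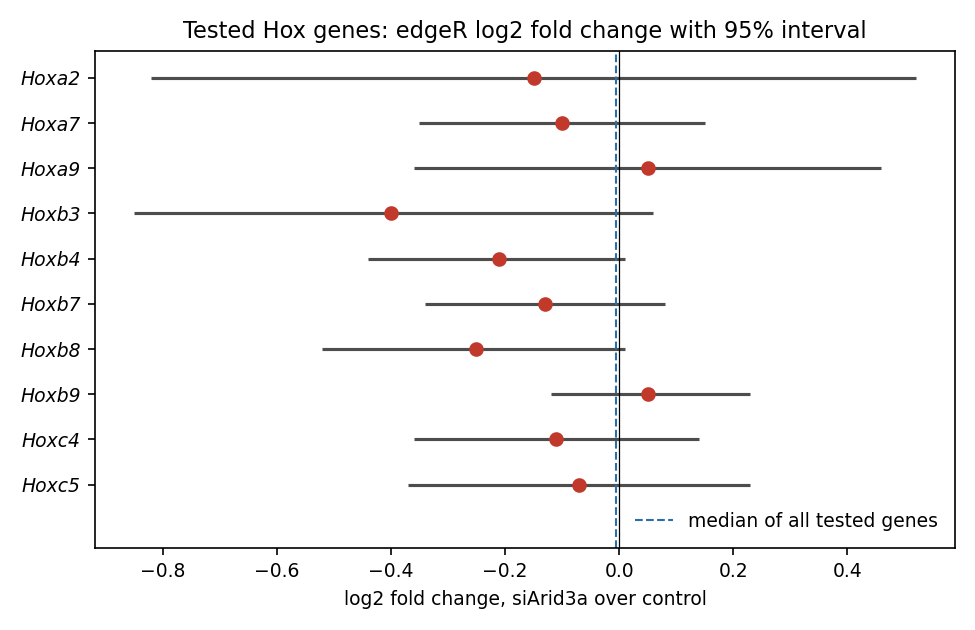
Log2 fold change of siArid3a over control (x axis) for 10 tested Hox genes (y axis, by cluster and paralog number), with lines for 95% intervals and a dashed line at the median of all tested genes. Every interval contains 0, and Hoxb3, Hoxb4 and Hoxb8 lie farthest below it at −0.40, −0.21 and −0.25.

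Paralog groups 10 to 13 were at or near 0 and were not tested. Hoxa10 had 2, 3 and 7 reads in siArid3a libraries 1, 2 and 3, against 0, 3 and 2 reads in control libraries 1, 2 and 3. Hoxb13 had 3, 0 and 5 reads in siArid3a libraries, against 4, 0 and 1 in the controls in the same order. The 6 genes together had 9, 3 and 22 reads in siArid3a libraries 1, 2 and 3, against 6, 7 and 6 reads in control libraries 1, 2 and 3. A single library, siArid3a library 3, held 22 of the 34 siArid3a reads, spread over Hoxa10, Hoxb13, Hoxc10 and Hoxc13. The summed level was 1.76 times the control, and 0.872 times without siArid3a library 3, an alternative chosen after the values were seen. That library had the lowest share of its reads in rows too low to test, 0.0889% against 0.0945% to 0.107% in the others. What sets it apart was not tested. A count of 0 allows up to 3 reads, or 0.132 to 0.176 CPM at these depths, and this floor covers counting error only.

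**Figure D4:**
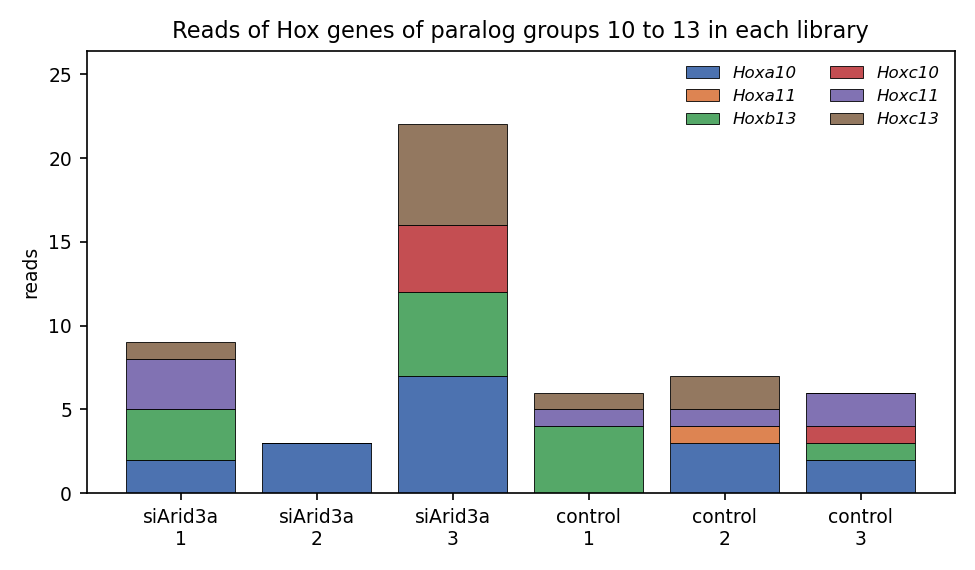
Reads (y axis) of the 6 Hox genes of paralog groups 10 to 13 in each library (x axis), stacked by gene. siArid3a library 3 has 22 reads and the other libraries have 3 to 9.

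Between their outermost Hox rows, the HoxA, HoxB and HoxC clusters hold 11 other rows, of which GENCODE M21 gives Gm28308 as protein-coding. HoxD, which has no Hox row, was not searched. Of these rows 6 were tested, Gm28308 and 5 non-coding ones, and 0 were called, where 0% of all tested genes were. None had groups that did not overlap, where 10.4% of all tested genes were lower and 9.66% higher in that way. The lincRNA Gm53, which lies between Hoxb13 and Hoxb9, had 31.0 ± 2.16 and 33.4 ± 3.89 CPM in siArid3a and control libraries (SD, n = 3 each). Hotairm1, an antisense RNA of the HoxA cluster that is known from myeloid cells, had 6.87 ± 1.18 CPM in siArid3a and 8.29 ± 1.38 CPM in control libraries, with a log2 fold change of −0.27 (SE 0.18). Hoxb5os had 4.11 ± 0.312 and 4.58 ± 0.565 CPM, and Hoxb3os 1.51 ± 0.335 and 1.54 ± 0.424 CPM, in siArid3a and control libraries. Mir196a-1 was covered by 409 reads over 102 bases, at a log2 fold change of −0.37 (SE 0.25). Whether those reads come from the hairpin precursor or from a longer transcript was not tested. The strand of the reads is not given in the sources used here, so sense and antisense genes that overlap cannot be told apart.

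Transcripts of proteins that act with Hox genes or on them were also examined. None was called (0 of 64 tested), where 0% of all 13234 tested genes were. Of 9 cofactors, which bind DNA beside Hox proteins, 0 were higher and 2 lower at an unadjusted p under 0.05, where the shares over all tested genes were 7.36% and 7.57%. Pbx4, a homeodomain partner of Hox proteins, had 1.54 ± 0.596 CPM in siArid3a and 2.53 ± 0.557 CPM in control libraries, a log2 fold change of −0.73 (SE 0.33) with an adjusted p of 0.309, and its groups overlapped. Its relative Pbx2 had 40.0 ± 1.39 and 42.3 ± 1.02 CPM in siArid3a and control libraries. Pknox2 was lower without overlap, at 1.65 ± 0.551 and 2.51 ± 0.223 CPM in siArid3a and control libraries, where 10.4% of all tested genes were so. The median over the cofactors was −0.08. Of the 9, 7 lay below 0 and 2 above, where 51.1% and 48.9% of all tested genes did.

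Chromatin regulators, the Trithorax and Polycomb proteins that keep Hox genes on or off, had a median log2 fold change of 0.07. Of 32 tested, 4 were higher and 1 lower at an unadjusted p under 0.05, where 7.36% and 7.57% of all tested genes were. Suz12, a core Polycomb subunit, had 166 ± 19.5 CPM in siArid3a and 139 ± 8.33 CPM in control libraries, a log2 fold change of 0.26 (SE 0.09) with an adjusted p of 0.202. Bmi1 and Cbx2, subunits of the other Polycomb complex, had log2 fold changes of 0.20 and 0.31 and did not overlap between groups. The remaining higher gene, Kdm6b, had 0.21 and did not overlap either. Rbbp5, Aebp2 and Rnf2 were also higher without overlap, at log2 fold changes of 0.11, 0.14 and 0.16. Over all tested genes 9.66% were higher without overlap. Of the 32 tested, 25 lay above 0 on the log2 scale and 7 below, where 48.9% and 51.1% of all tested genes did. Phf19, a Polycomb accessory gene, had −0.31. The most abundant, the histone-binding proteins Rbbp7 and Rbbp4, had 507 ± 45.9 and 451 ± 23.4 CPM, and 409 ± 38.5 and 361 ± 16.1 CPM, in siArid3a and control libraries.

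Of the inducers of Hox genes 5 were tested, with a median of −0.20. At an unadjusted p under 0.05, 0 were higher and 1 lower, where 7.36% and 7.57% of all tested genes were. The retinoic acid receptor genes Rarg and Rara had 184 ± 9.32 and 187 ± 22.9 CPM, and 34.4 ± 0.878 and 32.5 ± 4.61 CPM, in siArid3a and control libraries. Gdf11, a signal that sets the trunk to tail transition, was the lower one, with a log2 fold change of −0.27 (SE 0.12). Cdx1, Cdx2 and Cdx4, which switch on trunk Hox genes in the embryo, had 5, 4 and 1 reads over the 6 libraries.

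Other transcription factors of position had a median of 0.05. Of 18 tested, 3 were higher and 2 lower at an unadjusted p under 0.05, where 7.36% and 7.57% of all tested genes were. Prrx1, a limb and mesenchyme gene, was the most abundant at 264 ± 16.8 CPM in siArid3a and 305 ± 23.5 CPM in control libraries, a log2 fold change of −0.21 (SE 0.08) with an adjusted p of 0.252. Foxc1, a mesenchymal and vessel gene, had 73.1 ± 11.2 and 78.3 ± 18.2 CPM in siArid3a and control libraries. Gata6, a smooth muscle and heart transcription factor gene, had a log2 fold change of −0.32 (SE 0.12). En1, which marks dorsal dermis and midbrain in the embryo, had 2.17 ± 0.535 and 1.16 ± 0.105 CPM in siArid3a and control libraries, a log2 fold change of 0.89 (SE 0.32). Tbx1 averaged 5.46 ± 1.07 and 4.02 ± 0.333 CPM in siArid3a and control libraries, and its log2 fold change was 0.44 (SE 0.20). Of the factors named in this paragraph, Gata6 was lower without overlap, and En1 and Tbx1 were higher without overlap. The shares over all tested genes were 10.4% lower and 9.66% higher. Not every factor of this list is named, so these names are not a count for the list.

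**Figure D5:**
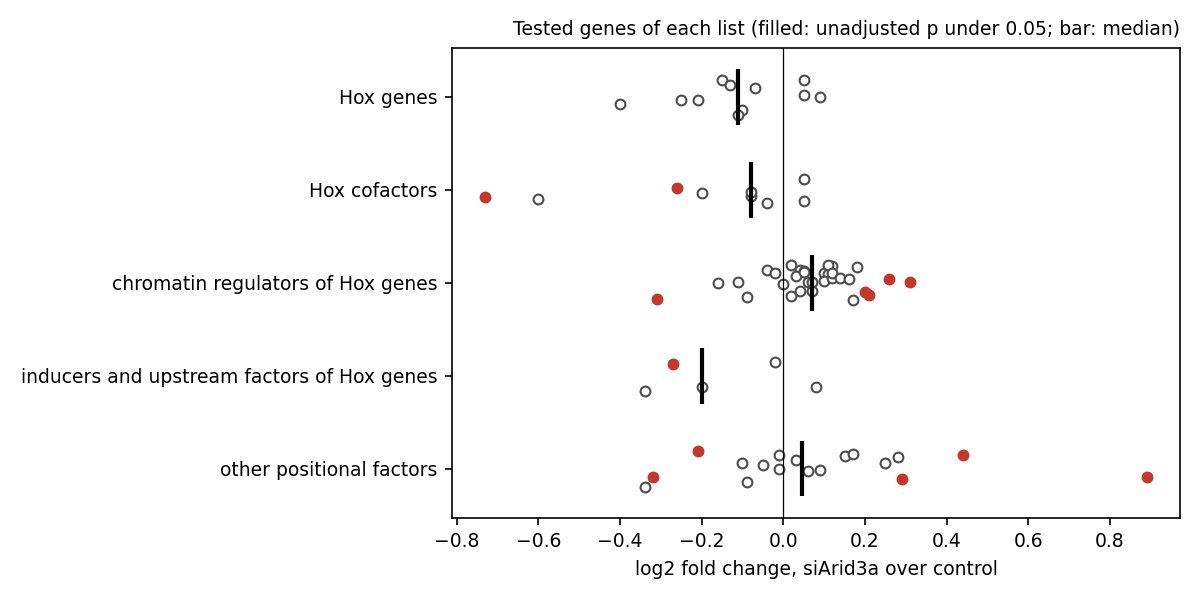
Log2 fold change of siArid3a over control (x axis) of each tested gene in 5 gene lists (y axis), with filled points for an unadjusted p under 0.05 and a bar for the median. The Hox genes have no filled point and a median of −0.11, and the largest value of the lists is 0.89 for En1.

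The summed levels of markers of other cell types did not overlap between the groups in 2 lists. Of all single genes tested, 10.4% were lower and 9.66% higher without overlap. The summed level of 5 fibroblast markers was 385 to 502 CPM in siArid3a libraries, against 539 to 695 CPM in control libraries. All 4 tested were below 0 on the log2 scale, where 51.1% of all tested genes were. Dcn, decorin, carried most of that sum at 371 ± 55.2 and 519 ± 74.7 CPM in siArid3a and control libraries, a log2 fold change of −0.48 (SE 0.12) with an adjusted p of 0.114. The groups did not overlap for Dcn and Col14a1, which were lower. They overlapped for Pdgfra, at 71.2 ± 7.36 and 76.2 ± 9.36 CPM in siArid3a and control libraries, and for Lum. Lum averaged 1.65 CPM, and Dpt had 12 reads, over the 6 libraries. The summed level of 5 mesothelial markers was 127 to 145 CPM in siArid3a libraries, against 152 to 173 CPM in control libraries. Nearly all of it came from Msln and Krt19. Msln had 104 ± 7.23 and 118 ± 7.33 CPM, and Krt19 33.8 ± 2.59 and 44.3 ± 3.29 CPM, in siArid3a and control libraries. Upk3b averaged 0.951 CPM over the 6 libraries, and its groups overlapped. Wt1 had 22 reads and Lrrn4 1 read over the 6 libraries, and neither was tested. In bulk RNA fewer cells of a type and less RNA per cell cannot be told apart. The summed levels of the endothelial (16.6 to 25.0 against 20.6 to 30.2 CPM), macrophage (6.15 to 8.76 against 7.82 to 9.06 CPM), pericyte (42.8 to 57.5 against 49.8 to 60.5 CPM), epithelial (4.14 to 4.68 against 4.52 to 6.92 CPM), striated muscle (6.14 to 6.23 against 4.01 to 7.12 CPM), neural (0.998 to 1.17 against 0.499 to 1.80 CPM) and adipocyte (0 to 0.117 against 0 to 0.136 CPM) markers overlapped between siArid3a and control libraries. The part of other cells in the Hox levels was not tested.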

How the data were processed

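The deposited values are raw gene counts, 1 column for each of 6 libraries. STAR 2.7.3a, featureCounts and the build mm10 are named by the submitters' processing notes. Neither the annotation used nor a strand setting is given in the sources used here. The 23197 rows were matched to GENCODE M21 by ID (23134 found, 22915 with the same start and end, and all 17 Hox rows among these). Genes passing filterByExpr (13234) received TMM factors, and edgeR 4.0.16 (R 4.3.3) fitted a robust quasi-likelihood model with group as its term. Benjamini-Hochberg adjustment ran over every tested gene, and calls needed an adjusted p under 0.05. CPM were counts over TMM-scaled library totals. Pairs of libraries within a group differed beyond sampling noise (chi-square per degree of freedom 5.72 to 20.2).

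The Hox members, the gene lists and the cell type markers were chosen with earlier results of these data known. The genes named are Arid3a, the tested Hox genes, the rows inside the clusters at 1 CPM or more, and from each list the 2 most abundant and up to 4 with the smallest unadjusted p under 0.05. Kdm6b, Rbbp5, Aebp2, Rnf2, Pknox2, Tbx1, the Cdx genes and every cell type marker named here were named after their values were seen. DESeq2 1.42.0, limma-voom (limma 3.58.1), other scalings and filters, a replicate block, a depth covariate and leaving out each library were the alternatives. The microRNA searches used, for each protein-coding gene, the longest 3′UTR among its basic GENCODE M21 coding transcripts, and left out very short ones. Other annotated 3′UTRs of a gene were not searched. Results of a few genes in the lists and among the members are not reported here.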

Additional observations from a re-analysis of the deposited data

How the results depend on the processing

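Hox genes called remained 0 under all 16 alternatives. Of 160 values of 10 tested members, 153 kept their direction and their side of the threshold, 7 changed sign and 0 passed. All 7 sign changes came from leaving out 1 library, over ranges of −0.45 to 0.12 for Hoxa2, −0.05 to 0.24 for Hoxa9, −0.00 to 0.11 for Hoxb9 and −0.17 to 0.03 for Hoxc5; the cause was not tested. The sign of Arid3a also turned, to 0.08 without control library 3 and 0.07 without siArid3a library 1 (range −0.13 to 0.08). Genes called over the whole table, 0 in edgeR, were 225 with DESeq2, 439 without a filter on low counts, 143 with the depth covariate and 0 to 135 with 1 library left out (135 without control library 2, 94 without control library 3, 37 without siArid3a library 2). Hox genes at an unadjusted p under 0.05 numbered 1 of 11 with upper quartile scaling and 1 of 11 without a filter, Hoxb8 in both. The shares over all tested genes were 14.9% and 11.1%. With 1 library left out the Hox genes numbered 0 to 2 of 11, and the shares over all tested genes were 8.04% to 17.9%. Without control library 2, where the share was 17.9%, the Hox genes were Hoxb8 (log2 fold change −0.36, edgeR adjusted p = 0.139) and Hoxb3 (−0.51, adjusted p = 0.274). The median Hox log2 fold change was −0.17 to −0.08 with 1 library left out. The highest level per kb was 39.7 to 41.2, and 11 members stayed at 1 CPM or more. The ratio of reads of paralog groups 10 to 13 ranged from 0.872 to 2.38. The labels do not say whether libraries of the same number were paired. Correlations of their deviations from the group mean were 0.048, −0.248 and −0.124, against −0.091 to 0.206 for libraries of different number. Deviations within groups of 3 depend on each other, so these correlations cannot decide whether libraries were paired. With the replicate block 0 genes were called, and 1362 against 1976 had an unadjusted p under 0.05. Depth limits the 6 rows of paralog groups 10 to 13, and counting error alone does not describe the spread of the others.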

Other observations

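As a share of the summed Hox level per kb of countable exon, Hoxb9 made up 35.4%, 36.8% and 34.7% in the libraries labelled siArid3a, in order of their number, and 32.1%, 32.0% and 33.1% in the controls. All siArid3a shares lay above all control shares, although the level of Hoxb9 itself overlapped between groups. As a share of Hox reads, Hoxb9 made up 41.7%, 43.1% and 40.6% in the siArid3a libraries, against 38.4%, 38.2% and 39.4% in the controls, again in order of number. The share was looked at after the values of the members were seen, it depends on the levels of the other members, and it was not tested. The HoxB share as a whole was 74.3% ± 0.735 in siArid3a libraries and 74.4% ± 0.949 in control libraries (SD, n = 3 each).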
